A study of Drosophila melanogaster with 4 samples.

Results

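The Bearded complex is a cluster of small genes on the left arm of chromosome 3 of Drosophila melanogaster, and the peaks described here are the Scute chromatin immunoprecipitation (ChIP-seq) peaks called in the interval given for it. The members were chosen by peak position, as peaks lying wholly inside the 35 kb interval of 3L given in FlyBase release 5 coordinates for the complex at cytological position 71A. This rule found 5 peaks, of 1276 in the deposited list, of 953 on the placed arms (2L, 2R, 3L, 3R, 4 and X) and of 181 on 3L. The locus was picked with the list already known, so every value below is a description and none carries a test.

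The study asked where Scute binds in whole embryos by comparing 2 ChIP libraries with 2 input libraries, input being chromatin that skips the antibody step. All 4 came from the fly strain Y cn bw sp, from embryos labelled 0 to 8 h with sex unknown. Both groups carried the same alleles, namely oc[R3.2] and y[1] on X, then bw[1], cn[1], sp[1], Gr22d[1], CG33964[R4.2] and Gr22b[1] on chromosome 2, and lab[R4.2], Rh6[1], GstD5[1], LysC[1] and MstProx[1] on chromosome 3. The collection protocol attached to the samples is worded for 8 to 16 h instead of 0 to 8 h. The antibody was a crude polyclonal guinea pig serum against Scute, and whole embryos mix all cell types. The files give 1 value per peak and none per library, so replicate spread and depth are unknown.

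Scute is a proneural transcription factor of the basic helix-loop-helix class. With its partner Daughterless it binds E-box sequences and turns on genes in the clusters of ectodermal cells from which neural precursors are chosen. That choice is made by Notch signalling, which lets 1 cell of a cluster become the precursor and holds back its neighbours. Bearded family genes are known to be active in proneural clusters. Their small proteins bind Neuralized, a ubiquitin ligase that promotes endocytosis of the ligand of Notch, and they restrain signalling by blocking it.

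Brd (Bearded), the founding member, gave the family its name after the extra bristles of its gain-of-function mutants. Tom (Twin of m4), Ocho and BobA (Brother of Bearded A) are relatives of it in the same complex. In the release 6 gene table, used for names and neighbours only, Tom, Brd and Ocho follow each other directly in that order. BobA comes before Tom, separated from it by the noncoding gene lncRNA:CR45978. CG13465 is the next gene beyond BobA and lncRNA:marge the next beyond Ocho. Since the peaks are in release 5 and the table is in release 6, no peak was assigned to any of these genes, and which of the 4 genes lie inside the interval was not checked in release 5. A further 4 genes of the family, E(spl)malpha-BFM, E(spl)m2-BFM, E(spl)m4-BFM and E(spl)m6-BFM, are listed on 3R. The family names BobB and BobC were also looked up and were not found in that table, so the genes named here may not be the whole complex.

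The 5 peaks stood together as a group of 3 strong peaks followed by 2 weak ones. They are numbered peak 1 to peak 5 in order of rising coordinate. The score of a peak is the authors' own value from their peak caller, read here as −log10 of a p-value, so that a higher score means a smaller p-value against background.

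Peak 1 ran from 14962180 to 14963318, was 1139 bp wide and scored 21.58. Peak 2, from 14965442 to 14966102, was 661 bp wide and had the highest score of the 5, 32.86. Peak 3 was the widest, at 1310 bp from 14967752 to 14969061, with a score of 24.97. Among these 3 the order by score was therefore not the order by width, since the peak with the highest score was the narrowest of them.

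Peak 4, from 14970060 to 14970674, was 615 bp wide and scored 10.03. Peak 5 ran from 14970804 to 14971128, was 325 bp wide and had the lowest score, 8.86. The weak pair thus lay at the high-coordinate end of the group, beyond the widest peak, and each scored below every one of the strong 3.

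**Figure D1:**
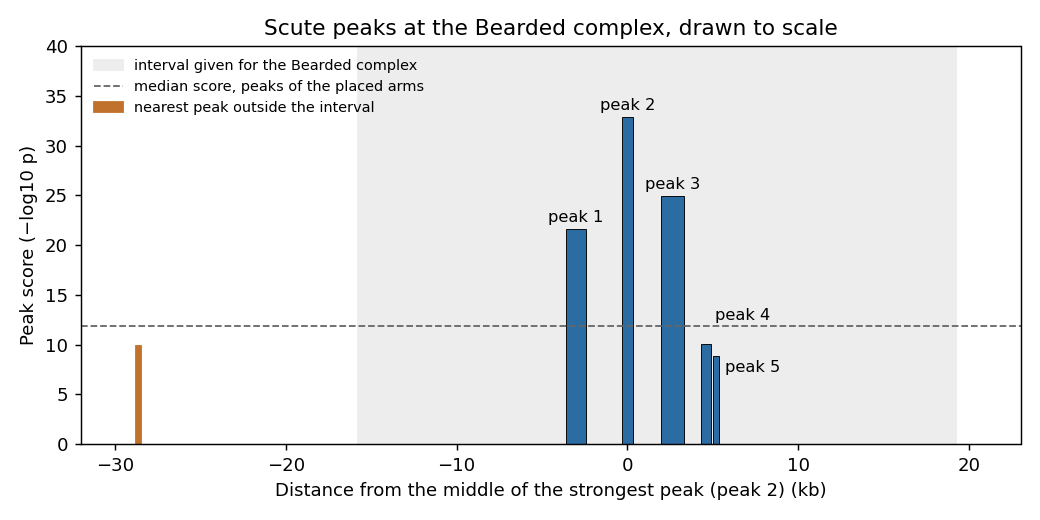
Peaks inside the interval (blue bars, drawn to scale) against distance in kb from the middle of peak 2, with the score on the vertical axis, the interval shaded, the nearest outside peak in orange and the median score of peaks on the placed arms, 11.9, as a dashed line. The first 3 peaks score 21.58 to 32.86 and the last 2 score 10.03 and 8.86.

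Together the 5 peaks covered 4050 bp of the 8949 bp from the start of peak 1 to the end of peak 5, or 45.3%. The first 3 made up 3110 bp of this and the last 2 made up 940 bp. The group took up 25.6% of the 35 kb interval. No peak was called in the 12.2 kb before it or in the 13.9 kb after it within the interval.

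Spacing fell along the group. The gaps between the end of 1 peak and the start of the next were 2123, 1649, 998 and 129 bp in order of position. Over all 147 gaps inside groups of at least 5 peaks on the placed arms outside the tandem array on 2L, the median gap was 789 bp and the range 46 to 8755 bp. The strong peaks were thus set farther apart than the median gap, and the weak pair closer. From start to start, the steps were 3262, 2310, 2308 and 744 bp. The middles of peaks 1 and 3 lay 3.02 kb before and 2.63 kb after that of peak 2.

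Peaks 4 and 5 lay nearest each other and together ran over 1069 bp. Merging peaks separated by at most 500 bp joined this pair and left 4 peaks, with the other 3 as called.

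Surroundings were sparse at higher coordinates and less so at lower ones. The nearest peak at lower coordinates lay 24.9 kb from peak 1, from 14937021 to 14937309, outside the interval by 12.7 kb. It scored 9.90 over 289 bp, between the scores of peaks 4 and 5. The nearest peak at higher coordinates, from 15255386 to 15255627, was 284 kb from peak 5 and 270 kb beyond the interval, 242 bp wide and scoring 9.44. No strong peak therefore lay just outside the interval on either side. As a yardstick, 3L held on average 0.274 peaks per 35 kb between its first and last peak. Ranked from the most distant, the 24.9 kb to the nearest other peak was number 18 among the 27 groups of at least 5 peaks on the placed arms.

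The 3 strong peaks ranked high among peaks of the placed arms and the 2 weak ones ranked low. By score peak 2 was number 50 of 953, peak 3 number 89 and peak 1 number 114. Peaks 4 and 5 were number 691 and number 815. On 3L alone, where the highest score was 84.73, peak 2 was number 8 of 181, peak 3 number 10 and peak 1 number 19, with the weak pair at number 129 and number 151. The interval thus held 2 of the 10 highest-scoring peaks of the arm.

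The median score of the 5 peaks, 21.58, was above the scores of 88.0% of placed peaks, whose own median was 11.9 with an interquartile range of 9.90 to 15.8. Of the 5, 3 scored above the placed median, as did 49.9% of all placed peaks by definition of a median. The highest-scoring 25% of the whole list, at 21.98 and above, took in peaks 2 and 3, 2 of 5, against 11.5% of placed peaks and 8.84% of those on 3L. Peak 1 lay just under that level, at 21.58.

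Width set the 5 peaks apart from the bulk of the placed peaks more evenly than score did. Their median width was 661 bp, against 324 bp on the placed arms, where the interquartile range was 248 to 496 bp, and 86.1% of placed peaks were narrower. All 5 were wider than the placed median, against 49.8% of placed peaks, peak 5 by only 1 bp, at 325 bp. Over the whole list the median width was 369.5 bp, which peak 5 did not reach. By width on the placed arms peak 3 was number 35, peak 1 number 42, peak 2 number 132, peak 4 number 164 and peak 5 number 472. On 3L alone peak 3 was number 5 and peak 1 number 7.

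Width and score rose together across peaks, so each peak was also set beside the 50 placed peaks nearest to it in score, without the 2L array. Spearman's rho between score and width was 0.65 over the 953 placed peaks, which come from the same libraries and are not independent. Peak 1 was wider than 45 of its 50 neighbours in score, whose median width was 565.5 bp. Peak 3 was wider than 46 of 50, with a median of 623.5 bp. Both were wide for their scores.

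Peak 2, the strongest, was wider than 22 of its 50 neighbours in score, whose median was 710 bp, so its width was ordinary for its score. Peak 4, although weak, was wide for its score. At 615 bp it was wider than all 50 of its neighbours, the widest of which reached 492 bp. Peak 5 was wider than 40 of 50, with a median of 245.5 bp.

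**Figure D2:**
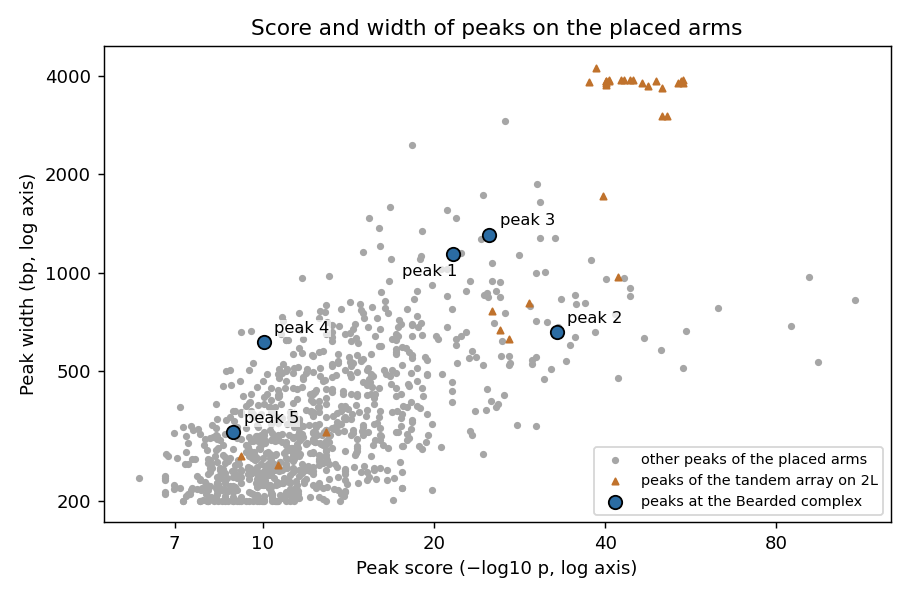
Width in bp against score for peaks of the placed arms, both on log axes, with the 5 peaks at the Bearded complex in blue and the 2L array in orange. Peaks 1, 3 and 4 lie toward the wide edge for their scores, and peak 2, at 661 bp and 32.86, lies within the cloud.

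Exact scores recurred for the weak peaks and not for the strong ones. The score of peak 4, 10.03, was held by 18 peaks of the list, and that of peak 5, 8.86, by 15. The scores of peaks 1, 2 and 3 each occurred once. Such unique scores were held by 48.2% of the 114 placed peaks that scored 21.58 or more and by 28.5% of the 263 that scored 10.03 or less, so nothing about the members is read from this. Many scores of the list fall on a ladder made by Poisson tail probabilities at whole-number heights and a single mean, estimated here as 55.7.

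Peaks 4 and 5 lay 0.014 and 0.010 from the nearest step of that ladder. Peaks 1, 2 and 3 lay 0.090, 0.233 and 0.107 away. The count of members on the ladder depends on the tolerance. At 0.006, with which the mean was fitted, 0 of the 5 were on it, against 33.5% of placed peaks. At 0.02, a tolerance chosen after the scores were seen, 2 of the 5 were, against 43.7% of placed peaks.

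Joining peaks separated by at most 10 kb made the 5 peaks a single group, among 538 groups on the placed arms. Groups of at least 5 peaks numbered 27, of which 25 lay outside the tandem array on 2L, a stretch of 31 peaks that is mostly made of peaks of 2500 bp or more. Among those 25, the Bearded complex group was high in its median and highest scores. It shared the lowest number of peaks with 11 others, by construction, since 5 was the smallest number admitted to the comparison. Its median score was number 2 of the 25, its highest score number 3 and its median width number 2. In peaks per kb it was number 14 of 25, at 0.559, and in the share of its span under peaks it was number 5.

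Set beside the 11 other groups of 5 peaks, it had the largest median score, highest score and median width, but not the largest lowest score. The medians of those groups ran from 8.59 to 16.75, all below 21.58. The strongest single peak in any of them scored 26.62, below peak 2 of the complex. Their lowest scores ran from 6.72 to 12.33, and most were above the 8.86 of peak 5. Their median widths ran from 227 to 505 bp, all under 661 bp. Their covered length ran from 1240 to 4068 bp, so 4050 bp was not the longest. Their spans ran from 3.33 to 15.2 kb, and most were shorter than the 8.95 kb of the Bearded complex.

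**Figure D3:**
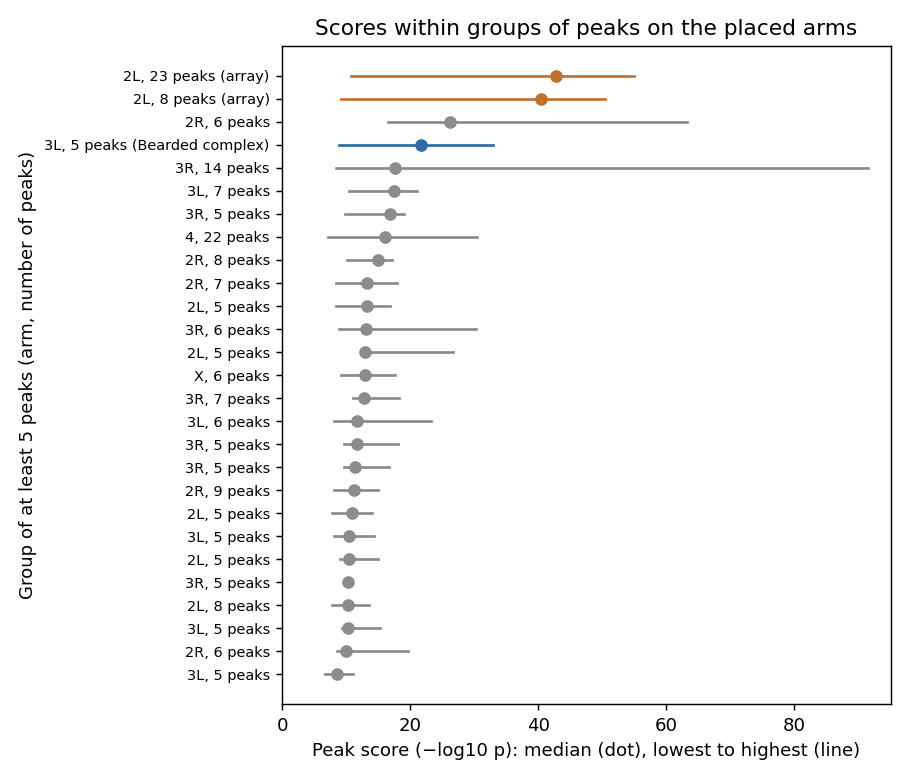
Each of the 27 groups of at least 5 peaks on the placed arms is a line from its lowest to its highest score, with a dot at the median, sorted by median. The Bearded complex group, in blue with a median of 21.58, comes after both groups of the 2L array (orange) and a group on 2R with a median of 26.14.

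The 3 groups of up to 8 peaks outside the array with the nearest median scores were on 2R, 3L and 3R. The 2R group, 6 peaks from 6305427 to 6325741, had a median of 26.14 and scores from 16.55 to 63.13. It had no peak as weak as peaks 4 and 5, and its peaks were spread over 20.3 kb against 8.95 kb. The 3L group, 7 peaks from 224217 to 240610, had a median of 17.39 and a highest score of 21.08, under the score of peak 1 of the complex. It was the 1 group outside the array with a larger median width, 719 bp.

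The 3R group, 5 peaks from 7036086 to 7051270, had a median of 16.75 and a highest score of 19.00. The longest group outside the array, 14 peaks on 3R from 21824851 to 21868628, reached 91.47. Its next scores were 40.1 and 29.55. Its median over 14 peaks was lower, 17.575, and its peaks were narrower, with a median of 410 bp. It held 5 peaks of the highest-scoring 25% of the list, against 2 in the Bearded complex group. Outside the array, 3 groups held at least 3 such peaks. The 3 strongest scores of the Bearded complex lay between 21.58 and 32.86.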

How the data were processed

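ChIP and input DNA from fly embryos were sequenced by the study, and 1 peak list for the whole series was deposited. Per the file headers, the build is FlyBase release 5 and the caller MACS. The submitters' processing notes name build BDGP5, BWA, CASAVA (1.7.0.2, 1.7.0.3) and MACS2. The sources used here do not give how libraries were combined, the threshold, or what was done with duplicate and multiply mapping reads. The score is the authors' own and was taken, from its values, to be the −log10 of a p-value.

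The interval and lists were chosen with earlier results of these data known. By the naming rule, every peak in the interval, the nearest peak on each side and the groups most like it are named. Peaks separated by at most 10 kb were joined into groups. Groups on 2L holding at least 2 peaks of 2500 bp or more delimit the tandem array. The ladder mean was fitted with a tolerance of 0.006. Grouping and fitting were run on simulated data as a check of the code only. There, groups were set farther apart than the joining distance, and a share of scores was planted at a single mean. The run therefore cannot tell whether these settings suit the deposited list. The set of 50 peaks nearest in score, the ladder, the gap comparison and the limit of 8 peaks for like groups were added after the list was seen. A planned search of promoters for E-boxes and Su(H) sites was not run, as no sequence was used here. Python 3.11.15, numpy 2.4.6, pandas 2.3.3, scipy 1.17.1 and matplotlib 3.10.9 were used.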

Additional observations from a re-analysis of the deposited data

How the results depend on the processing

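No paired analysis was possible because each peak has a single score and none for any library, which also kept any replicate from being left out. Of 19 alternatives, 11 left the value close to the one reported, and 8 moved it. Counted as close were 6 peaks instead of 5 with the interval widened by 15 kb on each side, and 4 with peaks within 500 bp merged. Also counted as close was a share of 3.87% scoring above peak 2 on 3L alone, against 5.14% on the placed arms. The number of peaks in the interval went from 5 to 3 with scores above the median of the list and to 2 in its highest-scoring 25%, by construction. The share of peaks scoring below the median of the 5, 88.0% on the placed arms, was 74.5% over all 1276 peaks and 90.7% without the 2L array. The share scoring above peak 2, 5.14% on the placed arms, was 11.9% over all peaks and 2.71% without the array. The share narrower than the median width, 86.1%, was 88.4% on 3L alone and 89.1% with peaks within 500 bp merged. The group held 4 or 5 peaks at joining distances of 2, 5 and 20 kb. The promoter alternative was not run. Depth and replicate spread are unknown, which leaves the reliability of all 5 peaks unmeasured, the 2 weak ones included.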
